A study of Mus musculus with 6 samples.

Results

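Of the 65518 accessible regions that the 3 peak lists gave together, 1507 (2.30%) had a peak in embryonic stem cells (ESCs) and in D-EPSCs and none in L-EPSCs. Expanded potential stem cells (EPSCs) were derived from the ESCs with 2 published media, that of the Deng laboratory for D-EPSCs and that of the Liu laboratory for L-EPSCs. The regions were obtained by pooling the peaks of the lists on chromosomes 1 to 19 and X, merging peaks that shared at least 1 bp, and keeping merged regions that held ESC and D-EPSC peaks only. They were thus chosen by the measured absence of an L-EPSC peak, which is a property of the rule and not a finding. They are referred to here as L-absent regions, and "absent" means that no peak was listed.

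All cells were J1 mouse ESCs of strain 129SV or their EPSC derivatives, a single line, and each state had 2 technical replicates that were deposited as 1 combined list. The assay, ATAC-seq, uses a transposase that inserts adapters where DNA is open. LIF at 1000 units/mL and the GSK3 inhibitor CHIR99021 at 3 µM were in all 3 media. ESC medium added the MEK inhibitor PD0325901 (1 µM) in 15% serum. D-EPSC medium had no PD0325901 and added 5% serum replacement, dimethindene maleate (2 µM) and minocycline (2 µM) to N2B27. L-EPSC medium held 20% serum replacement, PD0325901 (1 µM), the Src family inhibitor A-419259 (0.3 µM), the tankyrase inhibitor XAV939 (5 µM), JNK inhibitor VIII (4 µM) and the p38 inhibitor SB203580 (10 µM). The ESC and L-EPSC protocols allow feeder cells or gelatin, and per the study's methods both EPSC types were kept without feeders for several passages before this assay.

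GSK3 inhibition stabilises β-catenin, the transcriptional partner of TCF/LEF factors, whereas tankyrase inhibition stabilises axin and favours the destruction of β-catenin. JNK and p38 kinases act on AP-1 factors, which are dimers of FOS, JUN and ATF proteins. Open regions at gene starts are often rich in CpG and shared between cell types, while distal open regions carry sites for factors that differ between states.

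Of 8 pluripotency markers, 5 had an ESC peak at a start and all 8 had a D-EPSC and an L-EPSC peak. The ESC list had none at Nanog, Esrrb or Tdgf1. For 13 fibroblast markers the counts were 2 (ESCs), 6 (D-EPSCs) and 2 (L-EPSCs). Both markers with an ESC peak, Thy1 and Twist2, had a D-EPSC and no L-EPSC peak at a start, as had 118 of 22202 coding genes. The lists held 28965 ESC, 50225 D-EPSC and 46601 L-EPSC peaks with no score, so sequencing depth is unknown. L-absent regions used 5.23% of the ESC peaks and 3.01% of the D-EPSC peaks. The deposited lists give no value per replicate, so no test across samples was made here. Intervals below are at 95% and cover counting error over regions only.

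Sequences are shown first for 3 L-absent regions that carried the TCF/LEF letters CTTTGAT, in capitals on either strand, since this motif was more frequent in L-absent regions than in regions of all 3 lists. All are on the plus strand of mm9. The first, chr7:152007916-152008165, is intergenic, 15855 bp upstream of Fgf3 and 39158 bp from the start of Fgf4, which both encode FGF ligands. Its ESC peak was 605 bp and its D-EPSC peak 195 bp wide. The next, chr11:87436748-87436997, lies in an intron of Hsf5 and 39709 bp from Rnf43, a Wnt-induced ubiquitin ligase that removes Wnt receptors. The last, chr7:120310765-120311014, is intergenic and 40073 bp from Arntl, a core clock gene, and an L-EPSC peak began only 3 bp from this region.
Fgf3/Fgf4: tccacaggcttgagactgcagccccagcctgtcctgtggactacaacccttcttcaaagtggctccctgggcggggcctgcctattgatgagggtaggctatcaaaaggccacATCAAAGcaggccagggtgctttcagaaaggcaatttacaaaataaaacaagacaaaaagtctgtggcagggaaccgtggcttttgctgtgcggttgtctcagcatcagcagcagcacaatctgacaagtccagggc
Rnf43/Hsf5: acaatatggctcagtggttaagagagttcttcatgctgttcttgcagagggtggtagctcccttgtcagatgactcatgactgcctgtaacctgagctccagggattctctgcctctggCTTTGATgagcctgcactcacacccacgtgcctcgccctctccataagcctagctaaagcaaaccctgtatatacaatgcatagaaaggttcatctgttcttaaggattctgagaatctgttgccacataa
Arntl: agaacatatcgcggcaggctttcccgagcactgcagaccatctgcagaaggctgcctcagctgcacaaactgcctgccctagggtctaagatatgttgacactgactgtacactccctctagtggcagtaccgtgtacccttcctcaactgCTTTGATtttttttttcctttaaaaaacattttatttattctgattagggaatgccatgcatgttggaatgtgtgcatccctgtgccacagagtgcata

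The following 5 sequences show the widest intronic and intergenic regions and the bases upstream of 2 gene starts, with CpG dinucleotides in capitals, because CpG content was lower in L-absent regions than in regions of all 3 lists. The first 3 are 200 bases from the centre of the bases that both peaks shared. They are chr16:15053189-15053388 (intergenic, 146683 bp from Efcab1), chr13:55858631-55858830 (intron of Pcbd2) and chr1:167609180-167609379 (intron of Rcsd1). The others are chr12:106461084-106461283, before the start of Tcl1, and chr9:43851323-43851466, before the start of Thy1. They hold 6, 7, 7, 2 and 4 CpG dinucleotides in the order given.
Efcab1: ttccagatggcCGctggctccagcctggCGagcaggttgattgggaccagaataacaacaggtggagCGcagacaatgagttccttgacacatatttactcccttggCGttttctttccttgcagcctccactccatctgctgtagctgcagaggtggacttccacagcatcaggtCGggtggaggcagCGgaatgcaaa
Pcbd2: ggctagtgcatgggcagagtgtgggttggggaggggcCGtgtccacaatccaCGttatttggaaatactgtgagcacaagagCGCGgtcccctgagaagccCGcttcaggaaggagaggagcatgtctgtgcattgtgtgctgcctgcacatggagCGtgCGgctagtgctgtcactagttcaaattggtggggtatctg
Rcsd1: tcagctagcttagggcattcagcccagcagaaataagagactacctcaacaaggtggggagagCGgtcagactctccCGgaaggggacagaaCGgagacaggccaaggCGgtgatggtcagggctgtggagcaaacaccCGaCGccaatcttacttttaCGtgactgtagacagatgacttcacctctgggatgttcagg
Tcl1: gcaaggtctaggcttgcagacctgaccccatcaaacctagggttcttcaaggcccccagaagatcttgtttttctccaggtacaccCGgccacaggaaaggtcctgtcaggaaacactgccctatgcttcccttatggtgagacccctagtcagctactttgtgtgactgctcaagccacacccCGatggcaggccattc
Thy1: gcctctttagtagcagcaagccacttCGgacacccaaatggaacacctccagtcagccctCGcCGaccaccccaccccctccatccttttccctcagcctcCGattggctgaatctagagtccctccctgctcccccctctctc

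The median width of L-absent regions was 388 bp, against 385 bp over all 65518 regions. In 1492 of the 1507 a single ESC peak met a single D-EPSC peak, while 8 had 2 ESC peaks and 7 had 2 D-EPSC peaks. The widest ESC peak of a region was 253 bp at the median (interval 243 to 260), with quartiles of 173 and 381.5 bp and a range of 128 to 1136 bp. For D-EPSC peaks the median was 263 bp (248 to 274), the quartiles were 174 and 417 bp and the range was 117 to 1520 bp. The lowest values equal the shortest peak of each whole list. Regions of all 3 lists had medians of 421 bp in ESCs and 575 bp in D-EPSCs. These widths belong to the peaks that the rule selected on and are given without a test.

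**Figure D1:**
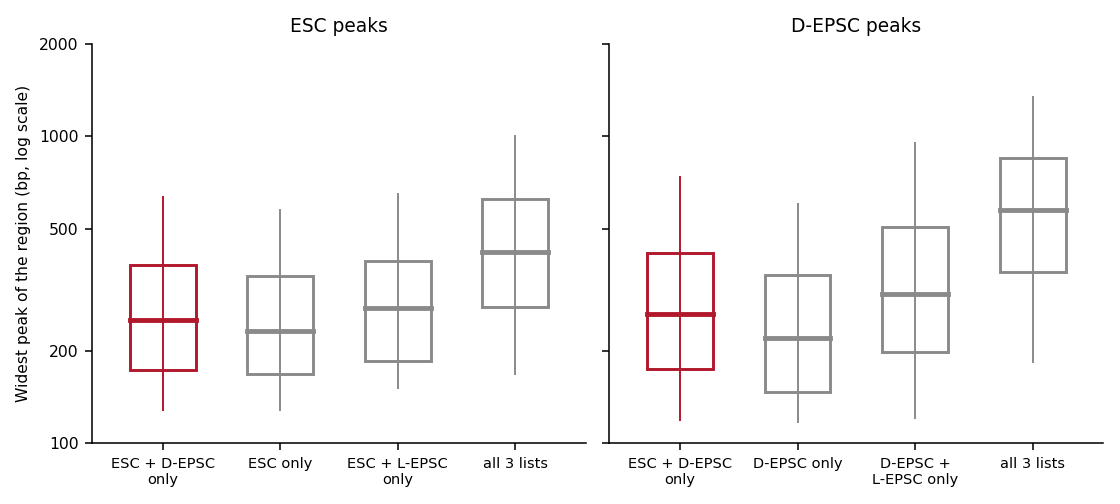
Width of the widest ESC peak (left) and D-EPSC peak (right) of each region in bp on a log scale, by the lists that held a peak there. Lines in the boxes are medians, boxes span the quartiles and vertical lines run from the 5th to the 95th percentile; the L-absent regions (red, medians 253 and 263 bp) lie below the regions of all 3 lists (421 and 575 bp).

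Neither state had the wider peak as a rule. The D-EPSC peak was wider in 766 L-absent regions (50.8%) and the ESC peak in 740, compared with a wider D-EPSC peak in 72.1% of regions of all 3 lists. Where there was 1 peak of each, they shared 168 bp at the median (quartiles 122 and 230 bp). The shorter peak lay wholly inside the longer in 625 of 1492 regions, and in 809 (54.2%) the shared bases made up at least 50% of each peak. Both peaks reached 500 bp in 73 regions (4.84%).

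The share of regions open in ESCs and D-EPSCs that lacked an L-EPSC peak was 6.48% (1507 of 23259, interval 6.17 to 6.80). The mirror share, regions of ESCs and L-EPSCs without a D-EPSC peak, was 8.09% (7.75 to 8.45). The first share varied with width. It was 15.8% (14.9 to 16.7) where the smaller of the ESC and D-EPSC widths was under 250 bp, 3.99% from 250 to under 500 bp and 1.01% (0.803 to 1.27) at 500 bp or more. It was 1.54% (1.32 to 1.79) within 1 kb of a coding start, 9.67% from there to 50 kb and 12.9% (11.9 to 14.0) beyond. Whether narrow peaks that just missed the caller's threshold in L-EPSCs make up part of the set was not tested.

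Every chromosome examined held L-absent regions, from 27 on chromosome X and 40 on chromosome 19 to 121 on chromosome 7. As a share of regions open in ESCs and D-EPSCs the values ran from 4.69% on chromosome 17 to 8.81% (7.21 to 10.7) on chromosome 13. Chromosome 11, with 82 L-absent regions, had 4.95% (4.01 to 6.10). For 16 of 20 chromosomes the interval held the value over all chromosomes, and chromosome 13 lay above it with chromosomes 11, 15 and 17 below. These intervals are not adjusted for the number of chromosomes, and that of chromosome 15 reached 6.30%, against 6.48% over all.

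The nearest L-EPSC peak was usually kilobases away. The median distance was 12213 bp (11127 to 13138), with quartiles of 5194.5 and 33348.5 bp. Only 30 regions (1.99%) had an L-EPSC peak within 500 bp and 81 (5.37%) within 1000 bp, while 124 (8.23%) had none within 100 kb. Regions of the ESC list alone were at 13839 bp (12873 to 14743) and those of the D-EPSC list alone at 10159 bp (9894 to 10413).

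**Figure D2:**
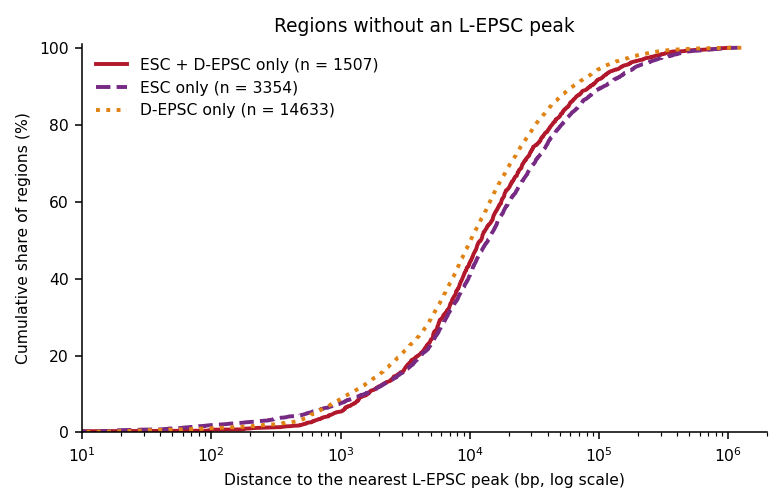
Cumulative share of regions (%) against the distance to the nearest L-EPSC peak (bp, log scale) for the 3 classes without an L-EPSC peak. The curve of the L-absent regions (solid, median 12213 bp) runs between those of D-EPSC only (dotted, 10159 bp) and ESC only (dashed, 13839 bp) regions over most of the range.

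At the edge of the rule, the 3 L-absent regions nearest to an L-EPSC peak were 1 bp from it near Gtf3c6 (peaks of 300 bp in ESCs and 235 bp in D-EPSCs), 3 bp near Arntl (168 and 137 bp) and 8 bp near Syt13, in an intron of Gm13791 (322 and 874 bp). Just outside it, L-EPSC peaks overlapped the others by 7 bp near Rimbp2 and by 9 bp near Mtfp1 and near Trhr2. Of the 21752 regions of all 3 lists, 84 had an overlap under 100 bp. Within L-absent regions the ESC and D-EPSC peaks shared as little as 1 bp, and merging only peaks that shared at least 100 bp gave 1359 L-absent regions.

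L-absent regions were mainly distal. A total of 163 (10.8%, interval 9.35 to 12.5) had a midpoint no more than 1 kb from a coding transcript's start, against 47.9% of regions of all 3 lists, a difference of -37.0 percentage points (-38.6 to -35.2). Against the 1915 regions of ESCs and L-EPSCs only, where 3.86% (3.09 to 4.82) were this close, the share was 6.95 points higher (5.20 to 8.79). Both differences were larger than the counting error. The share moved with the lists used, to 18.1% with the widest peaks at equal list length and 30.0% in the widest 50% of each list, where the difference from ESC and L-EPSC only regions was 16.0 points. In the remaining classes the share ran from 4.32% for ESC only to 19.2% for D-EPSC and L-EPSC only regions. The median distance to a start was 20749 bp (18660 to 23347), and 250 L-absent regions (16.6%) lay over 100 kb away.

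**Figure D3:**
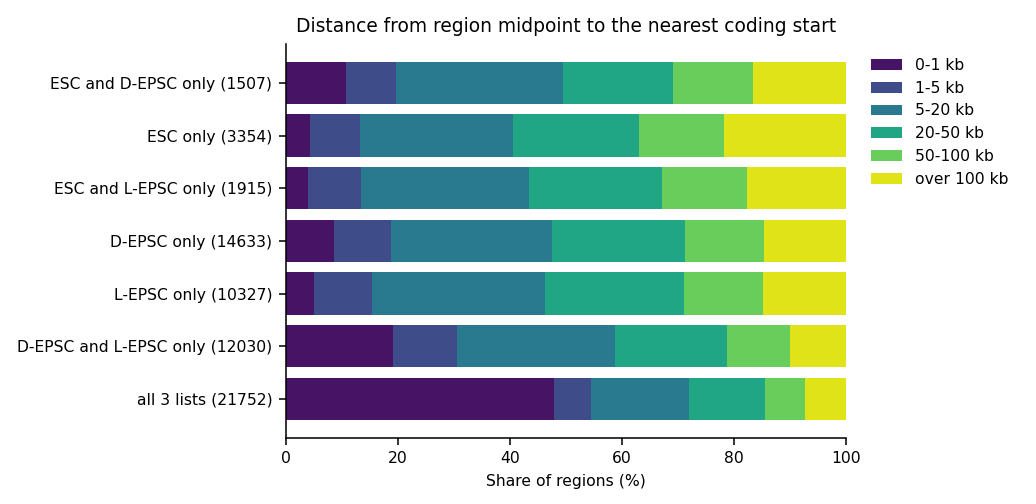
Share of regions (%) in 6 steps of distance from the midpoint to the nearest coding start, for each class with its number of regions. L-absent regions (top bar) had 10.8% within 1 kb, compared with 3.86% for ESC and L-EPSC only and 47.9% for regions of all 3 lists.

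By the annotation at their midpoints, 733 (48.6%) were intergenic, 627 (41.6%) intronic, 63 in UTRs, 52 in coding exons and 32 in other exons. The intergenic share was 9.65 points (7.05 to 12.3) above that of regions of all 3 lists, and 0.702 points (-2.67 to 4.07) above that of ESC and L-EPSC only regions, which is within counting error. The intronic share differed from that of the latter class by -4.45 points (-7.78 to -1.10).

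The 163 regions near starts differed from the 1344 others in composition. Their median GC content in 400 bp was 59.8% (58.3 to 61.3) and their CpG observed/expected ratio 0.538 (0.504 to 0.589), against 51.0% (50.8 to 51.5) and 0.228 (0.219 to 0.240) farther out. This ratio compares the CpG dinucleotides counted with the number that C and G content alone would give. The D-EPSC peaks near starts were 398 bp wide at the median (333 to 476) and the ESC peaks 302 bp (260 to 333). Over all L-absent regions the GC content was 51.8% (51.5 to 52.0) and the ratio 0.250 (0.236 to 0.261). Both were above those of ESC and L-EPSC only regions, at 48.8% (48.5 to 49.0) and 0.208 (0.202 to 0.214), and below those of all 3 lists, at 57.8% (57.5 to 57.8) and 0.545 (0.535 to 0.555), with no overlap of the intervals. D-EPSC only regions had the same median GC content, 51.8% (51.8 to 52.0), and a ratio of 0.230 (0.228 to 0.234).

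To ask which sequence features the regions shared, the letters of 15 motifs were counted in 400 bp around each midpoint on both strands. Intervals of these differences are adjusted for 30 comparisons. A match describes letters and not a bound site. The letters were CTTTGAT for TCF/LEF, TGANTCA for AP-1, ATGCAAAT for the OCT octamer, CATTGT for SOX, TCAAGGTCA for the orphan receptors ESRRB and NR5A2, CCACACCC for KLF, CCCTCCCC for ZFP281 and TTCCNGGAA for STAT. The others were AGGTCA for nuclear receptors (contained in the orphan receptor letters), ACATTCC for TEAD, TGTTTAC for forkhead, AGATAAG for GATA, GCCNNNGGC for TFAP2, CCACNAGGG for CTCF and GCGCATGCG for NRF1.

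TCF/LEF letters were found in 114 L-absent regions (7.56%, interval 6.33 to 9.01), against 4.88% of all 65518 regions and 3.75% of regions of all 3 lists. The difference from the latter was 3.81 points (1.89 to 6.27). Among regions over 1 kb from a start it was 2.34 points (0.210 to 5.03), and with the comparison class weighted to the same GC content 2.20 points (0.226 to 4.70). With both restrictions at once the interval reached 0, at 2.01 points (-0.119 to 4.73). Against ESC and L-EPSC only regions (5.69%) the difference was 1.87 points (-0.800 to 4.70), not larger than the counting error, and it was 2.52 points (0.0563 to 5.43) after GC weighting, 2.42 points (-0.220 to 5.56) with both restrictions, 0.138 points with the widest peaks at equal list length and -1.04 points in the widest 50% of each list. The same letters read backwards, a control of equal composition, were in 3.45% (2.64 to 4.50) of L-absent regions. Among the 7 classes the share was highest in ESC only regions (302 of 3354, interval 8.08 to 10.0%). Of the 114 regions, 105 were over 1 kb from a start.

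TCF/LEF letters were densest at the centres. Within 100 bp of the midpoint there were 75 sites, or 4.98 per 100 regions, and in the following 100-bp step 50 sites, or 3.32. Regions of all 3 lists had 1.91 and ESC and L-EPSC only regions 3.13 per 100 regions at the centre. The profile was uneven, since L-absent regions again reached 4.78 (72 sites) at 700 to 800 bp. Backward letters were at 1.39 per 100 L-absent regions at the centre, below their level farther out.

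**Figure D4:**
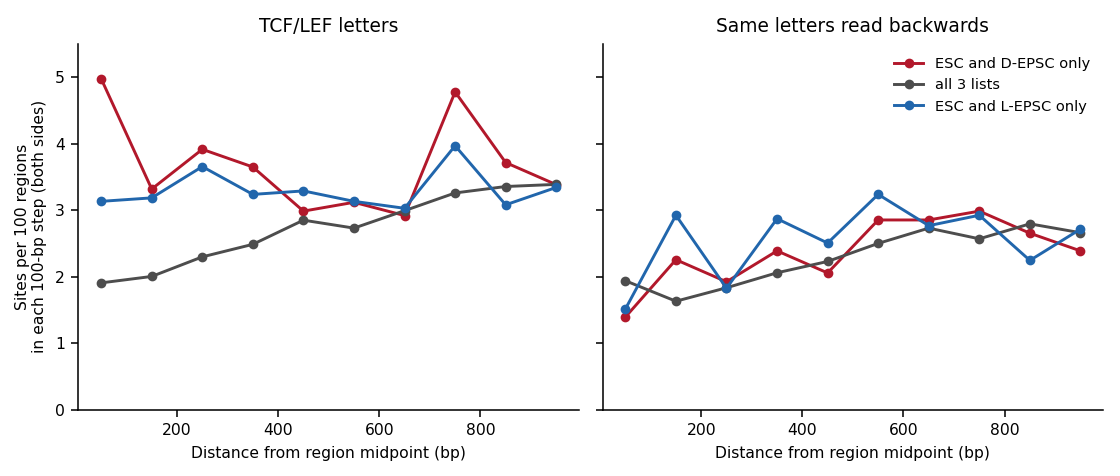
Sites per 100 regions in steps of 100 bp from the region midpoint, both sides added, for the TCF/LEF letters (left) and the same letters read backwards (right). L-absent regions (red) had 4.98 sites at the centre against 1.91 in regions of all 3 lists, and reached 4.78 again at 700 to 800 bp.

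KLF letters set L-absent regions apart from the other class lacking 1 EPSC list. They were in 67 (4.45%, 3.52 to 5.61) against 10.3% of ESC and L-EPSC only regions, a difference of -5.84 points (-8.61 to -3.03), which was -6.04 points away from starts and -6.59 points after GC weighting, but within counting error in the widest 50% of each list (-3.46 points). In all regions the share was 6.55%, and the L-EPSC only class had 9.25% and the D-EPSC only class 5.13%. Backward letters were in 3.72% (2.87 to 4.79) of L-absent regions, close to the forward share, and in 5.07% (4.17 to 6.14) of ESC and L-EPSC only regions. From regions of all 3 lists (5.77%) the KLF share differed by -1.33 points (-2.81 to 0.715), within counting error. This difference passed counting error over 1 kb from a start (-2.47 points, -4.12 to -0.238). It also did so with GC weighting added, an alternative chosen after seeing the data (-2.52 points, -4.15 to -0.271). KLF factors are activators of the naive pluripotency network.

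Orphan receptor letters were in 16 L-absent regions (1.06%; all regions 1.47%) and 3.29% of ESC and L-EPSC only regions, a difference of -2.23 points (-3.87 to -0.622). Backward letters were in 0.929% and 0.888% of them. SOX letters were in 17.3% of L-absent regions (17.6% of all regions), a difference of -8.22 points (-12.5 to -3.77) from ESC and L-EPSC only regions. TEAD letters, at 6.64% (all regions 5.96%), differed by -3.55 points (-6.50 to -0.508) and nuclear receptor letters, at 24.4% (all regions 24.6%), by -6.56 points (-11.3 to -1.71). ZFP281 letters, at 12.1% (all regions 13.0%), were higher by 3.79 points (0.526 to 7.19), and their backward control was in 12.7% of L-absent and 9.30% of ESC and L-EPSC only regions. Of these 5, only the nuclear receptor difference kept an interval without 0 after GC weighting, and it held 0 in 200 bp windows (-3.63 points, -7.47 to 0.315). From regions of all 3 lists, ZFP281 letters differed by -2.63 points (-5.15 to 0.360) and TEAD letters by 1.80 points (-0.00673 to 4.16). The ZFP281 difference passed counting error at equal list length (-2.81 points) and in the widest 50% (-4.35). That of TEAD passed it in 200 bp windows (1.37 points), with merging at 100 bp (2.27) and in the widest 50% (2.34). After GC weighting they were 0.724 (ZFP281) and 0.0800 points (TEAD), within counting error.

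AP-1 letters were in 173 L-absent regions (11.5%, 9.97 to 13.2), and in 10.8% of all regions. This was 3.42 points (1.01 to 6.31) above regions of all 3 lists, but 0.478 points (-2.22 to 3.68) away from starts, and it was -1.42 points (-4.91 to 2.18) from ESC and L-EPSC only regions. TFAP2 letters were in 16.4% (all regions 20.2%), a difference of -11.8 points (-14.8 to -8.47) from regions of all 3 lists that was -0.121 points after GC weighting. Against ESC and L-EPSC only regions the difference was 3.28 points (-0.532 to 7.20), past counting error with merging at 100 bp (4.57 points), at equal list length (4.04) and in the widest 50% (6.83), and -1.61 points after GC weighting. NRF1 letters were in 2 L-absent regions (0.133%; all regions 0.864%), against 1.84% of regions of all 3 lists (difference -1.71 points, -2.04 to -0.903). Away from starts this was -0.415 points (-0.712 to 0.459), and in the widest 50% of each list -1.19 points (-2.16 to 0.753). SOX, nuclear receptor, forkhead (5.91%; all regions 4.50%) and GATA letters (4.18%; all regions 3.34%) were also more frequent than in regions of all 3 lists, and each difference had an interval holding 0 away from starts, where those of SOX and nuclear receptor letters turned negative. With GC weighting as well, an alternative chosen after seeing the data, the SOX difference passed counting error in the opposite direction (-3.87 points, -7.20 to -0.107). Backward forkhead letters were in 6.30% of L-absent regions against 3.76% of regions of all 3 lists, and backward GATA letters in 4.58% against 2.71%. The OCT octamer (3.92%; all regions 2.85%), STAT (1.46%; all regions 1.51%) and CTCF letters (5.11%; all regions 4.04%) differed from neither class beyond the counting error. The OCT difference from regions of all 3 lists passed it with the widest peaks at equal list length (1.20 points, 0.0406 to 2.80). The CTCF difference from regions of all 3 lists, 1.22 points, passed it in 200 bp windows (1.66 points, 0.353 to 3.56) and with merging at 100 bp (1.75 points, 0.0326 to 4.08).

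**Figure D5:**
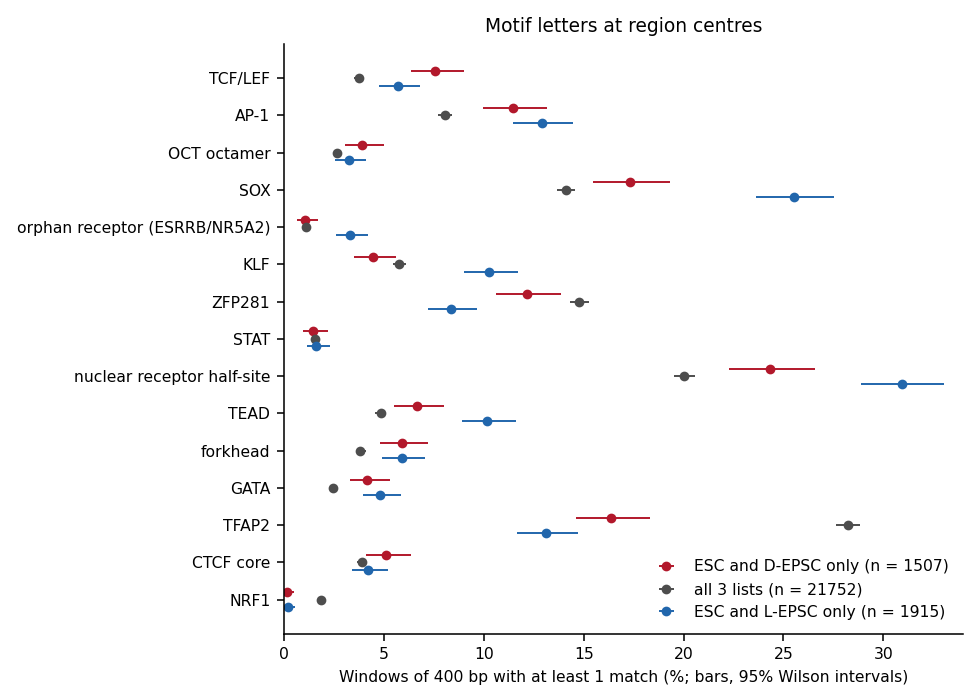
Share of 400-bp windows (%) with at least 1 match to each motif, with 95% Wilson intervals not adjusted for the number of motifs, in L-absent regions (red), regions of all 3 lists (grey) and ESC and L-EPSC only regions (blue). L-absent regions had TCF/LEF letters in 7.56% against 3.75% in regions of all 3 lists, and KLF letters in 4.45% against 10.3% in ESC and L-EPSC only regions.

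Of 22202 protein-coding genes, 177 (0.797%) had an L-absent region overlapping the 1 kb on either side of a start, and 2106 (9.49%) had one with its midpoint within 50 kb of a start. The count at starts was 388 with the widest peaks at equal list length, which gave 1961 L-absent regions, and 278 in the widest 50% of each list, which gave 871. The count within 50 kb was 3121 and 1620 in these settings. At 72 of the 177 genes an L-EPSC peak was present elsewhere at a start, and 105 had none. At the widest 15 promoter regions of genes without an L-EPSC peak at any start, the smaller peak was 515 to 761 bp. The first was 1190003J15Rik (761 bp in ESCs, 850 bp in D-EPSCs). Ptgfr, the prostaglandin F receptor, had peaks of 754 and 749 bp in ESCs and D-EPSCs, with the nearest L-EPSC peak 188508 bp away. Cd44, a hyaluronan receptor, had 680 and 886 bp and no L-EPSC peak within 171378 bp.

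Slc22a3, an organic cation transporter, had peaks of 659 bp in ESCs and 699 bp in D-EPSCs at a GC content of 70.5%. Jph3, a junctophilin, had 720 and 617 bp, and Padi2, a peptidylarginine deiminase, 643 and 580 bp. Gimap9, a GTPase gene of immune cells, had 547 and 618 bp, and its region was 48602 bp from an L-EPSC peak. Eps8l2, an actin regulator, had 540 and 955 bp, and Rrad, a Ras-related GTPase, 537 and 592 bp. The other 6 were Plcxd1, Pirt, 9030617O03Rik, Gm5148, Gramd1a and 0610012H03Rik.

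Of the 10 widest L-absent regions, 4 were intergenic, 5 intronic and 1 in a UTR. The leading one, 146683 bp from Efcab1, an EF-hand gene, combined an ESC peak of 998 bp with a D-EPSC peak of 1245 bp, 30617 bp from an L-EPSC peak. In an intron of Pcbd2, a pterin dehydratase and HNF1 cofactor, the peaks were 1070 and 994 bp wide and shared 968 bp. An intronic region of Rcsd1, which encodes a capping protein partner, had 826 and 784 bp. A region 7252 bp from Plbd1 had 761 and 751 bp, and an intronic region of Dab1, the reelin adaptor, 189 bp from a start, 793 and 749 bp with no L-EPSC peak within 218228 bp. The rest of the 10 were 1190003J15Rik and Ptgfr, named above, an intron of Cma2, a mast cell chymase (715 and 793 bp), and regions near Gm17613 (733 and 1291 bp) and Epc2 (707 and 728 bp).

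L-absent regions were scattered over genes. They were nearest to the starts of 1384 genes, 1272 of which had 1 such region, 102 had 2, 9 had 3 and 1 had 4. The gene with 4 was Magi2, a synaptic scaffold, whose 4 intronic regions stood among 30 regions nearest to it. Pde4dip, which encodes the centrosomal and Golgi protein myomegalin, had 3 of 7, and the other 4 were 3 regions of all 3 lists and 1 L-EPSC only region. Its ESC and D-EPSC peaks were 475 and 743 bp at one start, 628 and 539 bp at another, and 294 and 185 bp in the intron between. Wdr25 had 3 of 11, Gadd45a, a stress response gene, 3 of 13, and Kirrel3, an adhesion gene, and Setd4, a methyltransferase gene, 3 of 14 each. Cntn5 and Rapgef5 had 3 of 20, Irx3, a homeobox gene, 3 of 24, and Pde4d, a cAMP phosphodiesterase gene, 3 of 45. These counts go by the nearest coding start, and some regions lay far off or in other genes. The Rapgef5 regions at 481015 and 356725 bp were in introns of Ptprn2, and the Irx3 region at 175664 bp in an intron of Fto. The Gadd45a regions were 51637, 101081 and 109102 bp away, and the Wdr25 region at 12816 bp was in Begain.

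Runs were short. Linking regions within 50 kb of each other left 1343 alone and placed 164 in 76 pairs and 4 groups of 3. The most compact group, at Pde4dip (chr3:97671686-97692718, 21033 bp), held no other region of any list. The group near Gadd45a (58149 bp) included 2 regions of all 3 lists. The group between Efnb2, an ephrin ligand gene, and Arglu1 (60570 bp) held 9 regions in all, 2 of them of all 3 lists and 2 L-EPSC only. The group in Kirrel3 (83199 bp) included 1 D-EPSC only region. The most compact pair, near Rabgap1l, spanned 1159 bp.

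Genes of 13 lists were then examined against the 9.49% of all coding genes with an L-absent region within 50 kb. Among FGF and ERK feedback genes 8 of 22 (36.4%) had one, among housekeeping genes 5 of 15 (33.3%), among formative and primed pluripotency genes 6 of 22 (27.3%), among core and naive pluripotency genes 4 of 20 (20.0%) and among Wnt genes 6 of 37 (16.2%). The share was 16.7% for trophoblast regulators (3 of 18), 15.0% for retinoid genes and for fibroblast markers (3 of 20 each), 12.0% for Src and focal adhesion genes (3 of 25), and 9.68% for TGF-β and BMP genes and for JNK, p38 and AP-1 genes (3 of 31 each). It was 0 of 19 primitive endoderm regulators and 0 of 15 2-cell-stage genes, a list of genes expressed at that stage or linked to it. The lists are small and overlap (Fgf4, Fgf5, Etv4, Etv5, Lef1, Myc and Cdx2 are in 2 each). The housekeeping share was near that of the FGF list, so nothing is read from the order of the lists.

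At gene starts the lists held 5 L-absent regions, against a background of 0.797% of coding genes. Tcl1, an AKT co-activator of the naive state, had an ESC peak of 376 bp and a D-EPSC peak of 138 bp, and the nearest L-EPSC peak was 1578 bp from the region. Ptk2b, a focal adhesion kinase relative, had 168 and 278 bp. Fgf10, an FGF ligand, had 213 and 1074 bp. Thy1, a surface marker of fibroblasts and lymphocytes, had 425 and 328 bp, with the nearest L-EPSC peak 23176 bp away. At none of these 4 did the L-EPSC list hold a peak at a start, whereas Wnt5b, a Wnt ligand, with peaks of 238 and 395 bp and TCF/LEF letters, had one elsewhere at its starts. Thy1 is a fibroblast marker, and at starts of the 20 fibroblast list genes the lists had 5 (ESC), 11 (D-EPSC) and 6 (L-EPSC) genes with a peak. The EPSCs were without feeders before the assay, and the part of other cells in the peaks at Thy1 was not tested.

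In the pluripotency lists, Sall4, a zinc finger regulator of pluripotency, had peaks of 135 bp in ESCs and 118 bp in D-EPSCs 2209 bp from its start. The region 11013 bp from the start of Zfp42 (Rex1), a naive marker, had 202 and 335 bp. That of Fgf4, at 605 and 195 bp, is the Fgf3/Fgf4 sequence printed above. Lin28b, a repressor of let-7 processing, had 286 and 748 bp 3358 bp from a start, and Lin28a 168 and 235 bp, 17247 bp away. The region assigned to Zic5, a zinc finger gene of the formative state, had 247 and 119 bp. It lay 14656 bp from the start of Zic5 in an intron of Gm5089, 257 bp from an L-EPSC peak. All 6 list genes had ESC, D-EPSC and L-EPSC peaks at a start.

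In the Wnt list, Cdx2, a caudal homeobox gene, had an L-absent region of 288 and 117 bp (ESCs and D-EPSCs) 24353 bp from its start, and Tcf7l1, which encodes the repressor TCF3, one of 495 and 372 bp in its own intron. In the FGF list, Spry1 had 128 and 218 bp, 17230 bp from its start, and Spry2 263 and 121 bp, 35766 bp away. Sprouty proteins dampen receptor tyrosine kinase signalling. The region nearest to Fgf3 was the intergenic one printed above. Among stress kinase genes, Dusp8 had 128 and 266 bp, 2120 bp from its start, and Dusp1 246 and 1075 bp, 40711 bp away. Dusp8 and Dusp1 encode MAP kinase phosphatases. The region assigned to Gadd45b, of 311 and 288 bp, lay 12597 bp away in an intron of Lmnb2, 534 bp from an L-EPSC peak. For the Src list Pxn (paxillin) had 178 and 119 bp, 7686 bp from its start. Tln1 (talin) had 317 and 598 bp, 38758 bp away in an intron of Car9. In the TGF-β list Id1 had 168 and 205 bp (3223 bp from its start). Bmp4 had 394 and 174 bp (27995 bp away) and Smad7 389 and 119 bp (10400 bp away, in its own intron). Of these list genes, Cdx2, Spry1, Id1 and Bmp4 lacked an ESC peak and Fgf3 a D-EPSC peak at their starts. The other list genes had peaks of all 3 lists there.

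Among retinoid genes, Crabp1 and Crabp2, which encode retinoic acid-binding proteins, had L-absent regions with ESC and D-EPSC peaks of 174 and 119 bp and of 376 and 243 bp. These lay 45322 bp from the start of Crabp1 and 48739 bp from that of Crabp2, the latter in an intron of Bcan. For trophoblast regulators, Tead4 had 202 and 487 bp 3950 bp from its start and Elf3 201 and 292 bp, 9924 bp away. S100a4 had 273 and 224 bp (16693 bp from its start) and Pdgfrb 186 and 275 bp (32155 bp away), both from the fibroblast list. Housekeeping genes with a region included Ppia (574 and 124 bp, 4799 bp from its start) and B2m (128 and 121 bp, 13177 bp away).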

How the data were processed

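ATAC-seq reads had been aligned by the authors to mm9 with Bowtie2 2.3.5, filtered with SAMtools 1.10 (mapping quality 20) and passed to MACS at default settings. The submitters' processing notes also name FastQC 0.10.1, Trim Galore 0.6.3, cutadapt and HOMER. How replicates were combined is not given in the sources used here, nor whether duplicates were removed or cut sites shifted. The deposited lists hold 4 columns (chromosome, start, end, name), without a score. Starts were read as counted from 0. Mitochondrial peaks were left out.

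Peaks were merged at 1 bp of overlap. Genes came from GENCODE M1 on the same assembly, and all 288 listed symbols were matched, some by older names in the RefSeq gene table. Shares have Wilson, differences Newcombe and medians order-statistic intervals. Motif letters were searched without mismatch. Alternatives were merging at 100 bp, no L-EPSC peak within 500 bp, the widest 28965 peaks or 50% of each list, other windows and distances, and GC weighting in 5% steps. Named were the 10 widest regions by the smaller width, 15 promoters lacking an L-EPSC start peak, 10 genes with most regions, 5 runs, 3 regions on each side of the rule, and, per list, genes at starts and the 3 nearest within 50 kb, of which 2 genes are not reported here. Members and lists were chosen with earlier results of these data known. Python 3.11.15, numpy 2.4.6, pandas 2.3.3, scipy 1.17.1 and pysam 0.24.0 were used, tested on simulated data.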

Additional observations from a re-analysis of the deposited data

Results flagged for a closer look

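The mitochondrial genome was outside all comparisons, and each list held peaks there, with 2 peaks in the ESC list, 2 in the D-EPSC list and 2 in the L-EPSC list, which covered 71.7%, 71.4% and 71.5% of it.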

How the results depend on the processing

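No paired analysis was possible because the lists combine replicates and hold no values for them, so leaving one out could not be tried either. With the widest peaks to equal list length there were 1961 L-absent regions, more than the 1507 of the main setting. Of these, 18.1% were near a start, GC content was 53.3% and CpG observed/expected 0.302. The median ESC and D-EPSC widths were 278 and 447 bp, the TCF/LEF share was 6.22% and 388 genes had a region at a start. With the widest 50% of each list, 871 regions remained, with 30.0% near a start, GC content 54.5%, CpG observed/expected 0.373, widths of 489 and 536 bp, TCF/LEF in 5.17%, AP-1 in 9.76% and 278 genes. Both settings take wider peaks by construction. Merging at 100 bp gave a D-EPSC width of 276 bp. In 200 bp windows GC content was 52.5%, TCF/LEF 4.64% and AP-1 6.17%, and over whole regions GC content was 52.1%. A start distance of 2.5 kb gave 14.7% near a start, and 20 kb gave 997 genes.

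The AP-1 difference from regions of all 3 lists was no longer past counting error away from starts (0.478 points), after GC weighting (0.583) or both (0.00951). The TCF/LEF difference from regions of all 3 lists lost its call only with both (2.01 points, chosen after seeing the data), and that from ESC and L-EPSC only regions gained one after GC weighting (2.52), but not with both (2.42), at equal list length (0.138) or in the widest 50% (-1.04). Against regions of all 3 lists, SOX turned to -2.77 points away from starts, -2.63 after GC weighting and -3.87 with both, the last past counting error in the opposite direction (-7.20 to -0.107), and nuclear receptor letters to -2.06 and -0.887. Of 186 motif values other than those for TCF/LEF and AP-1, 141 stayed on the same side of the threshold, though some uncalled ones changed sign. A further 27 lost a call, 13 gained one and 5 turned from a call to the opposite sign, which are the SOX and nuclear receptor values just given. The cause was not tested. The TSS-proximal differences kept direction and call under every alternative run, and that from ESC and L-EPSC only regions was 9.52 points at equal list length and 16.0 in the widest 50%. Depth is unknown, so a missing peak may be a closed site or a weak one.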
